A study of Mus musculus with 12 samples.

Results

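Wnt proteins are secreted, lipid-modified ligands. They bind Frizzled receptors with LRP5 or LRP6 to stabilise beta-catenin, or with Ror2 and related coreceptors to steer cell polarity and movement without it. In the developing limb, Wnt ligands guide outgrowth, hold back cartilage differentiation where joints form and regulate chondrocyte maturation. The 10 genes described here are a chosen list of limb and joint Wnt ligand genes, *Wnt16*, *Wnt9a*, *Wnt4*, *Wnt5a*, *Wnt5b*, *Wnt11*, *Wnt2*, *Wnt2b*, *Wnt6* and *Wnt10b*. They were taken by symbol from the 54532 genes of the deposited E14.5 table, which holds 19 Wnt ligand genes in all.

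The libraries came from sorted limb bud mesenchymal cells of mouse embryos at E14.5, whose Prrx1-Cre fathers had been crossed with females carrying 2 Cre-dependent transgenes at Rosa26. The iCreb5 cells expressed HA-tagged bovine Creb5, a CREB/ATF-family transcription factor, together with GFP (6 libraries). The tdTomato cells expressed the red fluorescent protein tdTomato instead (6 libraries). Both groups carried Prrx1-Cre (Prx1Cre in the sample titles), whose Prrx1 regulatory sequence drives recombination in limb bud mesenchyme, so the transgene was on in the mesenchymal lineage as a whole and not in joint cells alone. Litter 3 gave 3 libraries of each group (3a, 3b and 3c), and litters 4, 5 and 6 gave 1 of each (iCreb5 4a, 5 and 6; tdTomato 4a, 5b and 6d). The batch labels follow the litters one to one, so effects of litter and of batch cannot be told apart. The labels do not say how many embryos went into a library, and p-values therefore cover the spread between libraries only.

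Recovered depth was 21.6 to 49.2 M reads (M for 1000000) per iCreb5 library and 9.02 to 53.3 M per tdTomato library, the shallowest being tdTomato 3a. Values are normalised read counts, in which 1 read was worth 0.494 to 2.79 units. *Creb5* was called higher in iCreb5 (log2 change 0.65 ± 0.12 (SE), limma adjusted p = 0.00219), with an adjusted p of 0.0501 in litters 4 to 6 (log2 change 0.52), though whether its count includes bovine transcripts is not stated. The 10 listed markers of limb mesenchyme summed to 22485 to 28433 in iCreb5 and 24028 to 30894 in tdTomato, and 1 of them was called (*Tbx4*, higher). In bulk libraries, fewer cells of a type and less RNA per cell cannot be told apart.

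*Wnt16*, at chr6:22288227-22298522 on the plus strand (mm10), carried the largest change of the 10 ligands. The 250 bases before its annotated start (RefSeq, GRCm38.p6, chr6:22287977-22288226, plus strand) are shown because CREB-family proteins bind the cAMP response element, TGACGTCA, and its half-site. The corresponding window of *Wnt11* (chr7:98834862-98835111, plus strand) is shown for contrast, with its half-sites in capitals.
Wnt16 promoter: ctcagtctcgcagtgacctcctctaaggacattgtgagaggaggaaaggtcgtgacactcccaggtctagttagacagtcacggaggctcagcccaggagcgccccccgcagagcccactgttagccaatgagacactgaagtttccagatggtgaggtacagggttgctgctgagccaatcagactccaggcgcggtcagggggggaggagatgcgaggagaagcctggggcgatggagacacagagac
Wnt11 promoter: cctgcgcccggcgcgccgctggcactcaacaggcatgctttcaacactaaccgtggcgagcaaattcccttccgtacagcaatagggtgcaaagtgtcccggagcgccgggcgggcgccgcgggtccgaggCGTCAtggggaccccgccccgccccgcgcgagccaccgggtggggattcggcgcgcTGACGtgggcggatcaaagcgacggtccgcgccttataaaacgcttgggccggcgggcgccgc

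Promoter windows could be matched for 9 of the 10 ligands, 12 windows in all, and were searched on both strands. The full element TGACGTCA was in none of the 12 windows and in 1.55% of all 32851 windows of this length. The half-site TGACG, which reads CGTCA when it lies on the minus strand and is part of the full element, was in 3 of the 12 windows and in 17.8% of all windows. These were both windows of *Wnt11* (matches starting at -119 and -63 in the first and at -171 in the second) and the window of *Wnt10b* (-6). The AP-1 motif TGANTCA was in 1 window, a *Wnt5b* start at chr6:119544348-119544597 on the minus strand (-191), against 6.75% of all windows. The *Wnt16* window held none of the 3, which says only that these letters are not in these 250 bases.

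**Figure D1:**
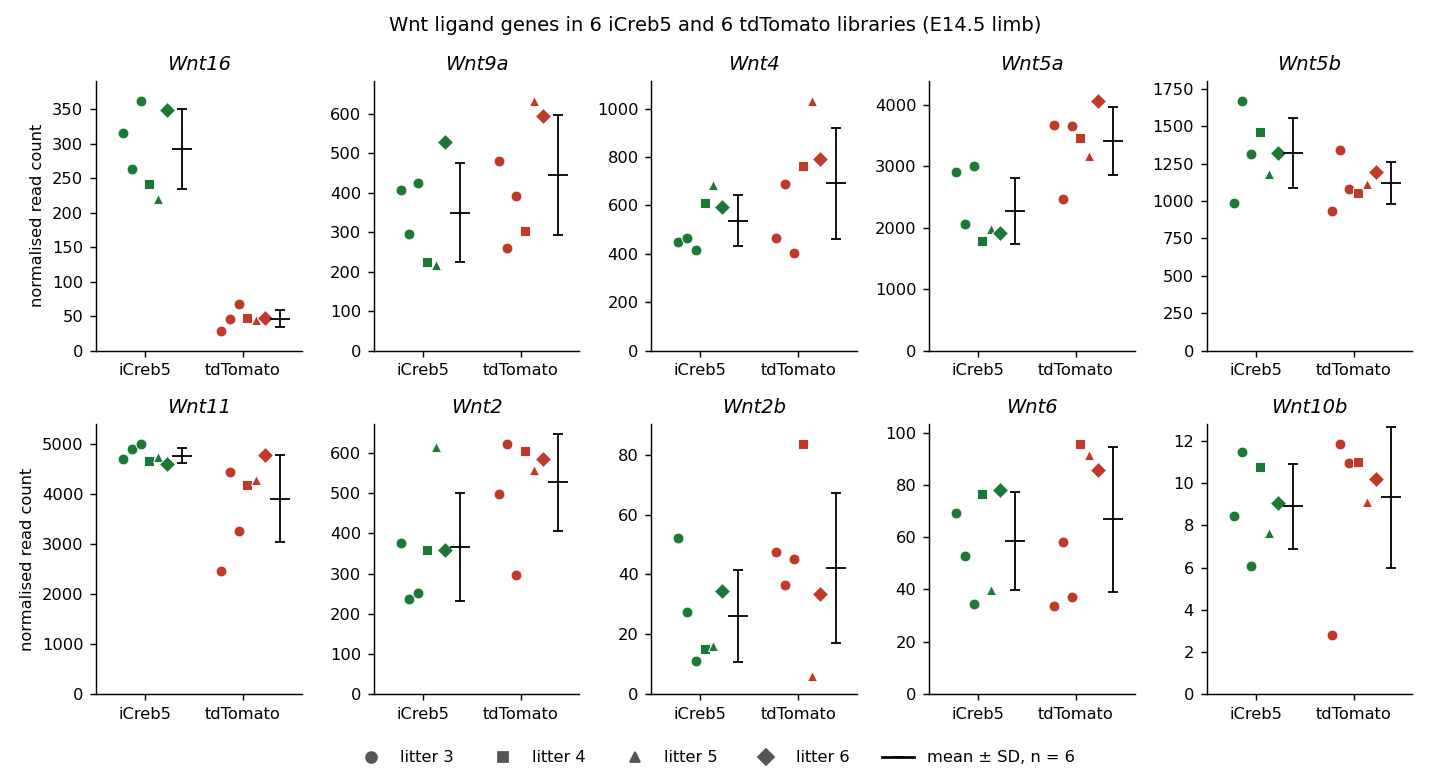
Normalised read count of each Wnt ligand gene in the 6 iCreb5 libraries (left, green) and the 6 tdTomato libraries (right, red), with marker shape giving the litter and the bar giving mean ± SD. Every iCreb5 library was above every tdTomato library for *Wnt16*, 221 to 362 against 27.9 to 67.2, while the groups overlapped for the other 9 ligands.

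All 10 ligand genes passed the filter on low values, *Wnt10b* narrowly. In limma across 16733 genes, 1 of the 10 was called higher in iCreb5 (*Wnt16*) and 1 lower (*Wnt5a*), where called means a Benjamini-Hochberg adjusted p under 0.05. Over all genes tested, 3.87% were called higher and 2.85% lower. *Wnt16* was also the 1 ligand whose groups did not overlap, against 2.83% of all genes not overlapping with iCreb5 higher and 1.92% with iCreb5 lower. The median log2 change of the 10 ligands was -0.23, and that of all genes tested was 0.00384. With 1 gene in each direction, neither count describes the 10 ligands as a group, so they are described gene by gene.

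*Wnt16* is expressed in developing joints and is known in mice for keeping cortical bone thick. It had a normalised read count of 221 at the lowest, 290 at the median and 362 at the highest in iCreb5, against 27.9, 46.4 and 67.2 in tdTomato. The 6 iCreb5 libraries held 225 to 716 reads of it and the 6 tdTomato libraries 10 to 92. The lowest iCreb5 library, iCreb5 5, was still far above the highest tdTomato library, tdTomato 3c. Means were 292 ± 58.3 in iCreb5 and 46.6 ± 12.5 in tdTomato (SD, n = 6 each). From its log2 change, *Wnt16* was 6.24-fold higher in iCreb5 (log2 change 2.64 ± 0.22 (SE), 95% interval 2.18 to 3.10, limma adjusted p = 1.65e-06). By unadjusted p it ranked 21 among the 16733 genes.

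The *Wnt16* difference was present in every litter. It was 6.93-fold in litter 3, 4.99-fold in litter 4, 4.91-fold in litter 5 and 7.22-fold in litter 6, each higher in iCreb5. The group values of litter 3 alone (log2 change 2.79, adjusted p = 0.00272) and of litters 4 to 6 (log2 change 2.49, adjusted p = 0.00241) both passed in limma. The difference between these log2 changes was 0.30 ± 0.45 (SE, interaction adjusted p = 0.939). All 24 alternatives kept the call, with log2 changes of 2.46 to 2.79.

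**Figure D2:**
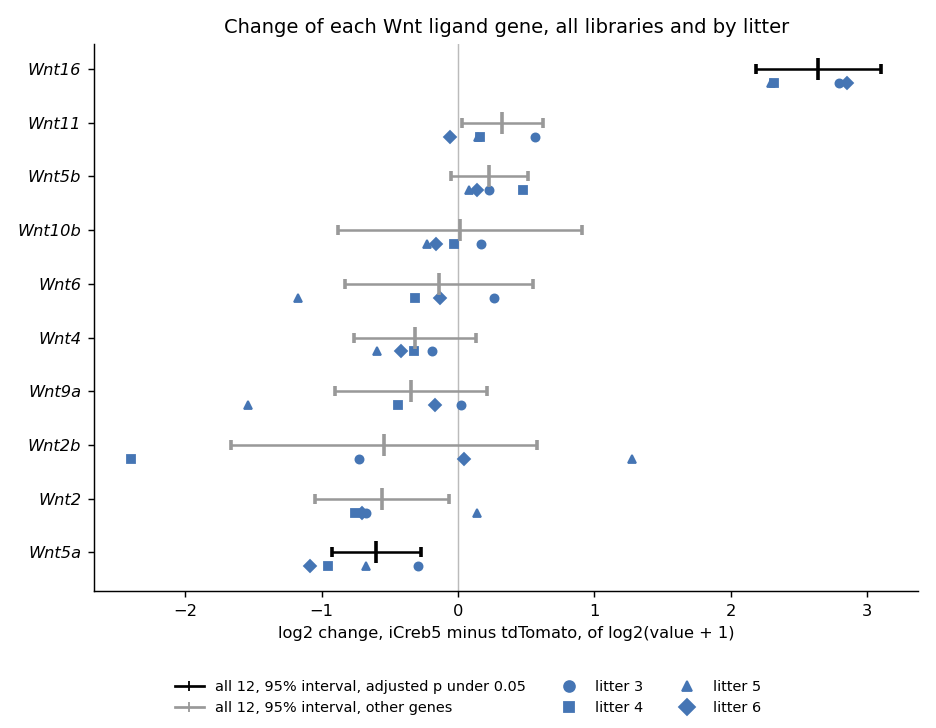
Log2 change of each ligand gene, iCreb5 minus tdTomato, with its 95% interval over all 12 libraries (black where the adjusted p was under 0.05, grey otherwise) and the change within each litter (blue). *Wnt16* at 2.64 stood apart from the other 9 ligands, whose changes ran from -0.60 (*Wnt5a*) to 0.32 (*Wnt11*).

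*Wnt9a* and *Wnt4*, the ligands described with *Wnt16* in the joint interzone, did not pass the test. *Wnt9a* (chr11:59306928-59333552, plus strand), which induces joint markers when misexpressed in chick cartilage, had 217, 352 and 530 normalised counts in iCreb5 (lowest, median, highest) and 261, 437 and 633 in tdTomato. Its groups overlapped, with 2 iCreb5 libraries (4a and 5) below all tdTomato libraries. The log2 change was -0.35 ± 0.26 (SE, limma adjusted p = 0.55). The litters differed in size and sign, with a log2 change of 0.02 in litter 3 and a level 2.90-fold higher in tdTomato in litter 5.

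*Wnt4* (chr4:137277489-137299726, plus strand), known for kidney tubule formation and expressed around joints, had 418, 530 and 683 in iCreb5 and 406, 727 and 1031 in tdTomato. All 6 iCreb5 libraries lay within the range of the tdTomato libraries. It was lower in iCreb5 in 4 of 4 litters, by a log2 change of -0.32 ± 0.21 (SE) over all libraries, and did not pass (adjusted p = 0.485). The 95% interval, -0.77 to 0.13, includes no change. Of the interzone list, 4 of 9 tested markers were called higher, 1 lower, and the summed level was 32481 to 36977 in iCreb5 against 21395 to 26128 in tdTomato. *Sfrp2* and *Osr2* made up most of that sum, and without them it was 4862 to 5743 in iCreb5 and 4880 to 6077 in tdTomato. *Sfrp2* was 1 of the 4 markers called higher (log2 change 0.54, limma adjusted p = 0.00216). The marker called lower was *Barx1* (log2 change -1.56, limma adjusted p = 0.000583). The defining marker *Gdf5* had 1068 ± 79.0 in iCreb5 and 967 ± 187 in tdTomato (SD, n = 6 each; limma adjusted p = 0.585).

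*Wnt5a* was the 1 ligand called lower in iCreb5. It lies at chr14:28504750-28527448 on the plus strand, signals through Ror2 and drives limb outgrowth and planar cell polarity. Its normalised read count was 1785, 2016 and 3009 in iCreb5 (lowest, median, highest) and 2465, 3555 and 4060 in tdTomato. The 4 iCreb5 libraries 3b, 4a, 5 and 6 lay below every tdTomato library, while iCreb5 3a and 3c lay above the lowest, tdTomato 3b. Means were 2273 ± 536 in iCreb5 and 3411 ± 548 in tdTomato (SD, n = 6 each), which is 1.52-fold higher in tdTomato (log2 change -0.60 ± 0.15 (SE), limma adjusted p = 0.0263).

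The fall in *Wnt5a* was present in 4 of 4 litters but uneven. The level was 1.22-fold higher in tdTomato in litter 3, 1.94-fold in litter 4, 1.6-fold in litter 5 and 2.12-fold in litter 6. The log2 change was -0.91 within litters 4 to 6 (adjusted p = 0.00587) and -0.29 within litter 3 alone (adjusted p = 0.468). Those log2 changes differed by 0.61 ± 0.27 (SE), with an unadjusted interaction p of 0.0383 and an adjusted p of 0.803 in limma. No gene of the 16733 passed the adjusted interaction test, and 1012 had an unadjusted p under 0.05. The call was kept in 13 of 24 alternatives and lost in 11, as it was without any 1 of iCreb5 3b, 4a and 6 or tdTomato 3a, 3c, 4a and 6d (adjusted p up to 0.0675). With libraries scaled to equal totals the log2 change was -0.53 (adjusted p = 0.0633).

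*Wnt5b* and *Wnt11*, the other ligands that act mainly without beta-catenin, had higher means in iCreb5 and did not pass. *Wnt5b* (chr6:119432531-119544347, minus strand), which regulates chondrocyte maturation, had 990, 1318 and 1668 in iCreb5 and 932, 1099 and 1341 in tdTomato. Its groups overlapped, with 2 iCreb5 libraries above all tdTomato libraries. It was higher in iCreb5 in 4 of 4 litters, with a log2 change of 0.23 ± 0.13 (SE, limma adjusted p = 0.393). The gene *Fbxl14* lies within *Wnt5b* on the opposite strand, and strand use in counting was not stated, so their reads may not be fully separated.

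*Wnt11* (chr7:98835112-98855195, plus strand), expressed around developing cartilage and known for directing cell movements, was nearly level across the iCreb5 libraries. It had 4591, 4715 and 4990 in iCreb5 and 2457, 4224 and 4781 in tdTomato. The groups overlapped, with 2 iCreb5 libraries (3b and 3c) above all tdTomato libraries and tdTomato 6d, at 4781, above the other 4. The lowest of the 12 were tdTomato 3a and 3c, at 2457 and 3255. The standard deviation was 152 in iCreb5 and 869 in tdTomato (n = 6 each). The log2 change was 0.32 ± 0.14 (SE), with a 95% interval of 0.03 to 0.62 and an adjusted p of 0.225 in limma. It was 0.56 in litter 3 and 0.08 in litters 4 to 6, and the gene was higher in iCreb5 in 3 of 4 litters.

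*Wnt2* (chr6:17988940-18030585, minus strand), known for lung and placental development, came nearest to the threshold among the ligands not called. It had 237, 358 and 614 in iCreb5 and 297, 571 and 622 in tdTomato. In iCreb5, 5 of 6 libraries had 376 or less, and iCreb5 5 stood apart at 614, among the tdTomato values. The log2 change was -0.56 ± 0.23 (SE, limma adjusted p = 0.199), and it was -0.72 without iCreb5 5 (adjusted p = 0.0444), the 1 alternative of 24 that called it.

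Its relative *Wnt2b* (chr3:104945272-104961921, minus strand), linked to forelimb initiation in chick, was weakly expressed. It had 11.1, 21.8 and 52.3 in iCreb5 and 6.09, 40.9 and 83.6 in tdTomato, from 4 to 91 reads per library. The groups overlapped across their whole range, and 2 litters were higher and 2 lower in iCreb5. The log2 change was -0.54 ± 0.53 (SE, limma adjusted p = 0.664), with a 95% interval of -1.66 to 0.58 that holds differences of more than 2-fold in tdTomato's favour.

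*Wnt6* and *Wnt10b* are known from limb ectoderm, and *Wnt10b* also stimulates bone formation in mice. *Wnt6* (chr1:74771892-74785322, plus strand) had 34.4, 61.0 and 78.1 in iCreb5 and 33.5, 71.9 and 95.5 in tdTomato (log2 change -0.14 ± 0.32 (SE), limma adjusted p = 0.879). *Wnt10b* (chr15:98770712-98778150, minus strand) had 6.07, 8.74 and 11.5 in iCreb5 and 2.79, 10.6 and 11.9 in tdTomato (log2 change 0.02 ± 0.42 (SE), adjusted p = 0.992). Both genes overlapped across groups, and *Wnt10b* rested on 1 to 24 reads per library. The 95% interval of its log2 change, -0.88 to 0.91, leaves changes of either sign possible. Epidermal markers were present in both groups, with 0 of 12 called, and summed to 692 to 1678 in iCreb5 and 989 to 1494 in tdTomato.

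**Figure D3:**
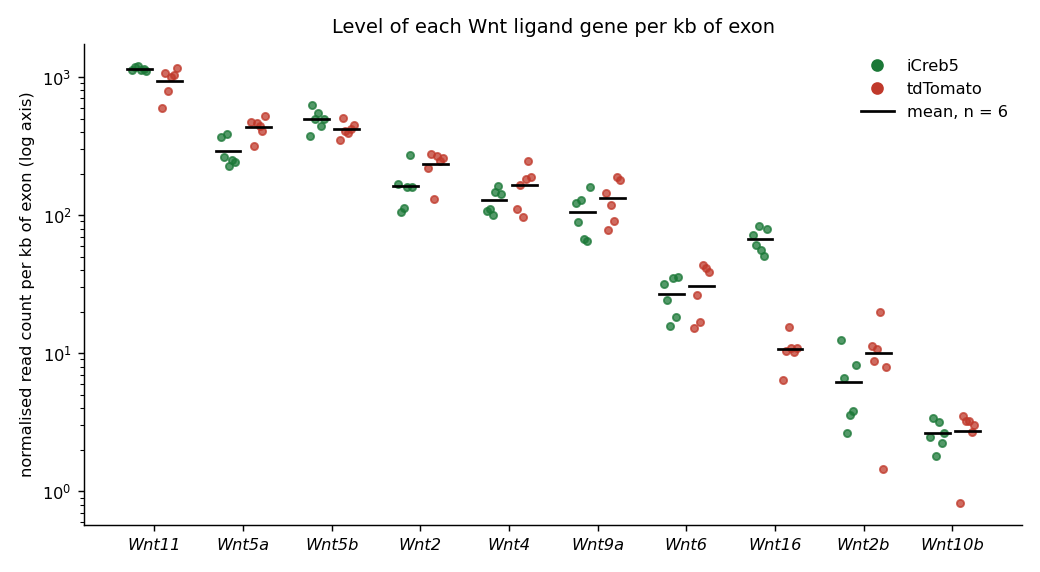
Normalised read count per kb of exon on a log axis for each ligand gene, with the 6 iCreb5 libraries (green) left of the 6 tdTomato libraries (red) and a line at each mean. *Wnt16* averaged 67.0 per kb in iCreb5 and 10.7 in tdTomato, and *Wnt11* was the highest ligand in both groups.

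Levels were compared between ligands per kb of exon in GENCODE M21. In iCreb5 the order of mean levels per kb was *Wnt11* (1151), *Wnt5b* (498), *Wnt5a* (291), *Wnt2* (162), *Wnt4* (128), *Wnt9a* (105), *Wnt16* (67.0), *Wnt6* (26.7), *Wnt2b* (6.22) and *Wnt10b* (2.62). In tdTomato it was *Wnt11* (942), *Wnt5a* (436), *Wnt5b* (422), *Wnt2* (234), *Wnt4* (165), *Wnt9a* (134), *Wnt6* (30.5), *Wnt16* (10.7), *Wnt2b* (10.01) and *Wnt10b* (2.74). *Wnt11* stood above its neighbour in both groups with no overlap of libraries. In iCreb5, *Wnt16* overlapped *Wnt9a* and stood above *Wnt6*, whereas in tdTomato it overlapped *Wnt6* and *Wnt2b*. Each neighbouring pair from *Wnt5b* down to *Wnt16* overlapped in iCreb5, and so did *Wnt5a* with *Wnt5b*, *Wnt2* with *Wnt4* and *Wnt4* with *Wnt9a* in tdTomato.

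The summed level of all 19 ligands per kb was 2459 ± 49.1 in iCreb5 and 2405 ± 332 in tdTomato (SD, n = 6 each), so the sums overlapped. *Wnt16* made up 2.72% of this sum in iCreb5 and 0.451% in tdTomato. *Wnt11* made up 46.8% in iCreb5 (45.3 to 47.5%) and 38.8% in tdTomato (30.5 to 43.4%), and *Wnt5a* 11.8% in iCreb5 and 18.5% in tdTomato. A share depends on the other ligands, so these figures describe composition and not separate changes. Of the 9 Wnt ligand genes outside the list, *Wnt7b* and *Wnt10a* passed the filter and neither was called. *Wnt9b* was listed at 0 in all 12 libraries, and the other 6 had at most 20 reads in any library.

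Genes that act on or after the ligands were read from lists of pathway genes. Of 85 such genes other than ligands, 79 were tested, 6 were called higher in iCreb5, 2 lower and 71 were not called, against 3.87% higher and 2.85% lower over all genes. The 8 called genes encode proteins that are secreted or at the cell surface. By list, the called genes were 1 of 3 for secretion and ligand removal, 3 of 16 receptors and coreceptors, 2 of 8 in the R-spondin group and 2 of 13 secreted inhibitors. None of 16 core beta-catenin genes and none of 14 target genes was called, nor any of the 11 polarity genes tested other than *Wnt5a*. With litter as a block 8 of the 79 were called higher and 6 lower, against 5.13% and 4.35% of all genes in that fit, and the 6 included 3 of the 14 target genes.

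*Rspo2* and *Rspo3* encode R-spondins, secreted proteins that raise Wnt receptor levels through LGR receptors. *Rspo2* had 457, 660 and 889 in iCreb5 (lowest, median, highest) and 158, 318 and 452 in tdTomato (log2 change 1.17 ± 0.22 (SE), limma adjusted p = 0.00382). *Rspo3* had 2228, 2481 and 3042 in iCreb5 and 1252, 1464 and 1587 in tdTomato (log2 change 0.81 ± 0.10, adjusted p = 0.000136). Neither gene's groups overlapped, and *Rspo2* lost its call in litter 3 alone (adjusted p = 0.0595). The other R-spondin genes, *Rspo1* and *Rspo4*, had log2 changes of -0.81 (limma adjusted p = 0.0627) and -0.26 (adjusted p = 0.808) and were not called. The receptor genes *Lgr4*, *Lgr5* and *Lgr6* had log2 changes of -0.17, 0.43 and -0.66 and were not called.

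Among the Frizzled receptors, *Fzd9* fell and *Fzd1* and *Fzd4* rose in iCreb5. *Fzd9* had 558, 692 and 869 in iCreb5 and 1483, 1863 and 2759 in tdTomato, with no overlap (log2 change -1.53 ± 0.15 (SE), limma adjusted p = 1.54e-05). *Fzd1* had 1736, 2423 and 2747 in iCreb5 and 1095, 1563 and 1602 in tdTomato, again with no overlap (log2 change 0.69 ± 0.13, adjusted p = 0.00393). *Fzd4* had 1129, 1708 and 2350 in iCreb5 and 518, 949 and 1500 in tdTomato. Its groups overlapped, and its call (log2 change 0.83 ± 0.23, adjusted p = 0.0364) was lost in 13 of 24 alternatives, with adjusted p up to 0.144 (litters 4 to 6). These included 9 of the 12 that left out 1 library, namely iCreb5 3a, 3c, 4a or 6 or tdTomato 3a, 3b, 3c, 5b or 6d. The more abundant *Fzd2* and *Ptk7*, a coreceptor, had log2 changes of 0.06 and 0.09 and were not called.

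Among inhibitors and ligand-removing enzymes, *Sfrp2*, which binds Wnt proteins, and *Dkk2*, which binds LRP coreceptors, rose in iCreb5. *Sfrp2* had 20330, 21730 and 25985 in iCreb5 and 13639, 15712 and 17616 in tdTomato (log2 change 0.54 ± 0.10 (SE), limma adjusted p = 0.00216). *Dkk2* had 5406, 6151 and 6643 in iCreb5 and 3474, 3746 and 4605 in tdTomato (log2 change 0.66 ± 0.10, adjusted p = 0.000412). The groups overlapped for neither gene. *Sfrp1*, another Wnt-binding protein, and *Dkk3* had log2 changes of 0.47 (adjusted p = 0.0818) and 0.14 (adjusted p = 0.734) and were not called. *Notum*, an enzyme that removes the lipid from Wnt proteins, had 147, 183 and 279 in iCreb5 and 321, 414 and 514 in tdTomato, and fell without overlap (log2 change -1.09 ± 0.18, adjusted p = 0.000989). *Wls* and *Porcn*, needed for Wnt release and lipid addition, had log2 changes of 0.24 and -0.01 and were not called.

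**Figure D4:**
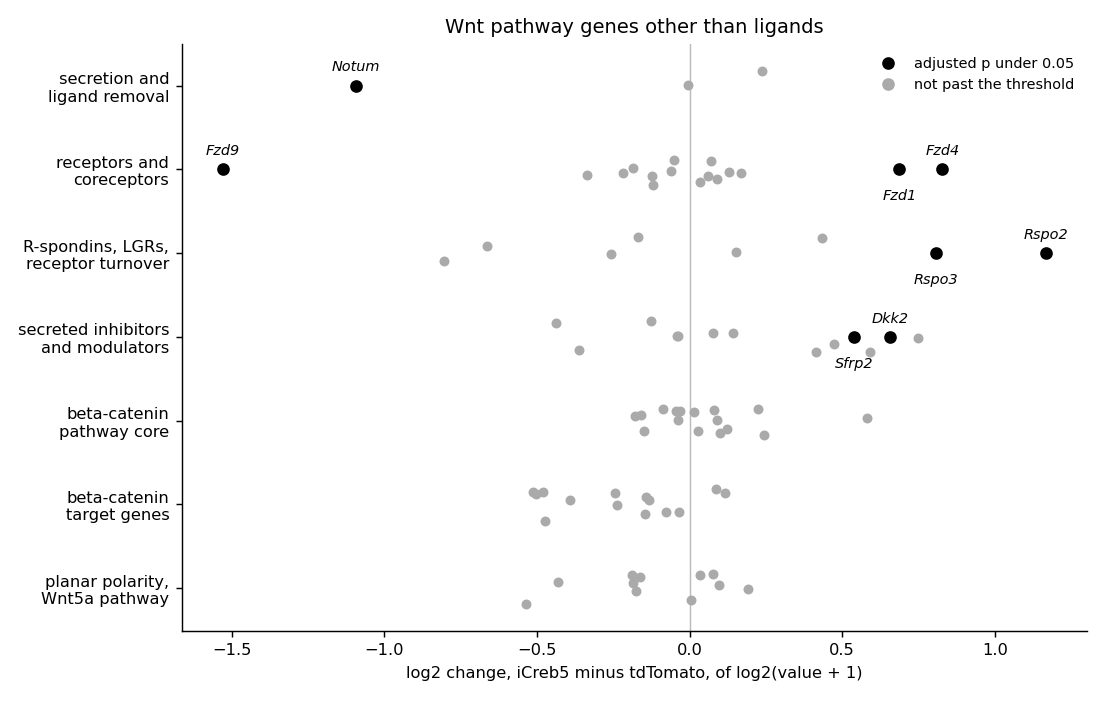
Log2 change, iCreb5 minus tdTomato, of the 79 tested Wnt pathway genes other than ligands, grouped by list, with genes past the threshold in black and named. In this fit, without litter as a block, the core, target and polarity rows hold no black point.

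Inside the cell, *Ctnnb1*, which encodes beta-catenin, and *Csnk1a1*, a kinase that marks it for degradation, had log2 changes of -0.18 and 0.09 and were not called. The 14 target genes had a median log2 change of -0.19, with *Ccn4* at -0.25 and *Twist1* at 0.09. The target *Axin2*, named for its wide use as a readout after its value was seen, had 200 ± 33.6 in iCreb5 and 192 ± 65.4 in tdTomato (SD, n = 6 each; log2 change 0.12, limma adjusted p = 0.849). The 3 target genes called lower with litter as a block were *Lef1* (log2 change -0.51, adjusted p = 0.0366), *Tcf7* (-0.48, 0.0274) and *Bambi* (-0.50, 0.0296), for which the fit without the block gave adjusted p of 0.167, 0.419 and 0.236. The same block also called the inhibitor *Wif1* lower (log2 change -0.44, adjusted p = 0.0258) and *Sfrp1* (0.47, 0.01) and *Sostdc1* (0.41, 0.039) higher. Of the *Wnt5a* pathway, *Ror2* and *Prickle1*, a receptor and a polarity protein, had log2 changes of 0.04 and -0.19 and were not called.

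The genes beside *Wnt16* were then read. *Fam3c*, a secreted protein gene whose 3′ end lies 8.00 kb beyond that of *Wnt16* on the opposite strand, had 4005, 4266 and 4803 in iCreb5 and 2527, 2830 and 2965 in tdTomato. Its groups did not overlap, and it was 1.55-fold higher in iCreb5 (log2 change 0.63 ± 0.09 (SE), limma adjusted p = 0.000209), a call kept in all 24 alternatives. *Cped1*, on the other side, had a log2 change of 0.42 ± 0.18 (adjusted p = 0.213) and *Tspan12* one of 0.55 ± 0.17 (adjusted p = 0.0636). Of the 8 tested genes that start within 1 Mb of *Wnt16*, 2 were called, *Wnt16* itself and *Fam3c*. Over all genes tested, 3.87% were called higher and 2.85% lower, and so small a count does not describe the region.

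**Figure D5:**
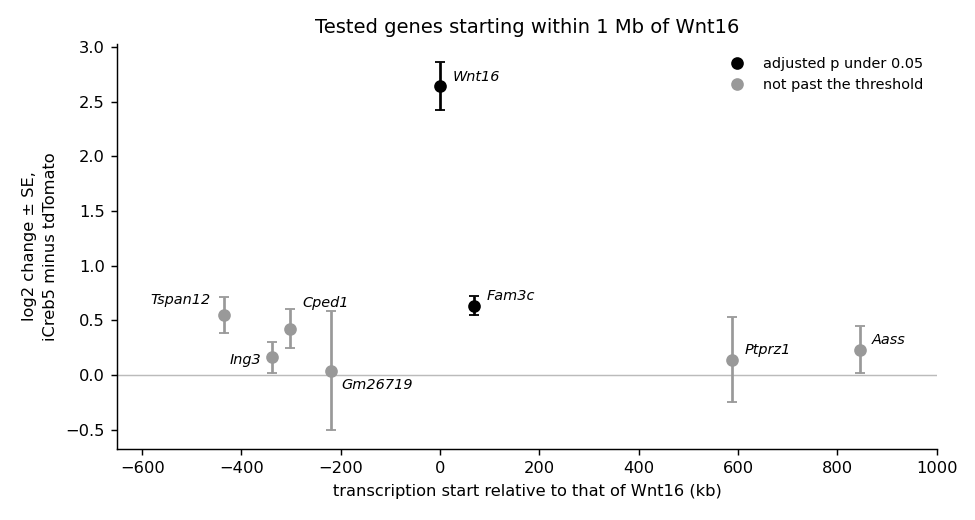
Log2 change ± SE, iCreb5 minus tdTomato, of the 8 tested genes starting within 1 Mb of *Wnt16*, by distance in kb between transcription starts along the chromosome. *Wnt16* (2.64) and *Fam3c* (0.63), in black, passed the threshold.

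By likeness of pattern over all 12 libraries, the genes closest to *Wnt16* were *H2-T23* (Pearson r = 0.980), *Lyve1* (0.974), *Nefm* (0.972), *Tmem108* (0.970) and *Klhl1* (0.969). All 5 were called higher in iCreb5, and since *Wnt16* separates the groups, such r values largely restate that separation. *Nefm*, a neurofilament gene, averaged 2076 in iCreb5 and 325 in tdTomato, and *Lyve1*, a marker of lymphatic vessels and some macrophages, 227 in iCreb5 and 27.8 in tdTomato.

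Markers of some other cells moved with the groups. Few or none were called for red cells (0 of 5 tested), skeletal muscle (0 of 8) and epidermis (0 of 12). The same held for tendon (1 of 7, higher) and for Schwann cells and melanoblasts (1 of 7 tested, lower). All 12 leukocyte markers were called higher in iCreb5, none was at 0, and they summed to 2308 to 10221 in iCreb5 and 579 to 1043 in tdTomato. The leukocyte sum and the *Wnt16* value were 2308 and 242 in iCreb5 4a, 3175 and 264 in 3b, and 4531 and 362 in 3c. They were 6119 and 315 in iCreb5 3a, 6234 and 221 in 5, and 10221 and 349 in 6. Endothelial markers were called higher for 5 of 8, with sums of 1897 to 4298 in iCreb5 and 1374 to 1916 in tdTomato. Beside the same *Wnt16* values, the endothelial sum was 1897 in iCreb5 5, 3054 in 4a and 3385 in 6. It was 3751 in iCreb5 3b, 3813 in 3a and 4298 in 3c. Of 15 chondrocyte markers 14 were called lower, with sums of 106769 to 148733 in iCreb5 and 214952 to 465195 in tdTomato, and so were 6 of 8 hypertrophic and 8 of 9 tested osteoblast markers. No marker of the endothelial, chondrocyte or hypertrophic lists was at 0 throughout. Their part in the changes of *Wnt16*, *Wnt5a* and the other ligands was not tested.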

How the data were processed

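RNA was measured in 12 libraries of sorted E14.5 limb cells, prepared with Nextera XT from polyA RNA per the labels' protocols. The deposited table holds a normalised signal per gene, gene counts divided by a size factor per library, as the values themselves show: in each library they step by 1 fixed unit, and division by that unit returned whole reads for 100% of entries (tolerance 1e-06). FastQC, STAR, Salmon, DESeq2 and build mm10 are named without versions in the submitters' processing notes. Another 8 deposited columns, of a later stage, match no labelled sample and were not used.

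The 16733 genes that reached a value of 10 in 6 or more libraries were tested with limma 3.58.1 in R 4.3.3 (trend, two-sided) on log2(value + 1), with Benjamini-Hochberg adjusted p under 0.05 as the threshold. Fold changes are ratios of geometric means of value + 1, which understate changes of low genes. The test was also run on simulated counts with the same dispersion (extra spread) for every gene and no litter effects. Changes were set there only in genes away from the low end, and the outcome is not given here. That run cannot show how litters, or counts as low as those of *Wnt10b*, bear on the test. Alternatives, 24 in all, included the recovered reads in edgeR 4.0.16 and in DESeq2 1.42.0. A library's value at 3 reads was 1.48 to 8.38 units, for counting error only. Symbols matched 54409 of 54532 identifiers, and lengths came from GENCODE M21.

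The labels mark litters, so litters pair the groups, and litter as a block was an alternative. Deviations from the group means correlated by 0.154 in litter 4, 0.346 in litter 5, 0.000309 in litter 6 and 0.0281 on average in litter 3. The labels give 4 litters where the design text speaks of 6.

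The ligands, gene lists and tests were chosen with earlier results of these data known. Named pathway genes are up to 4 called genes of each list, by size of change, and its 2 most abundant genes not called, plus genes where a count of 5 or fewer is given. Genes like *Wnt16* are the 5 of mean value 50 or more with the highest r. *Gdf5*, *Axin2*, *Rspo1*, *Rspo4*, *Lgr6* and the genes near *Wnt16* were named after their values were seen. One result that the rule would name is not reported here.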

Additional observations from a re-analysis of the deposited data

Results flagged for a closer look

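The values named here stood far from the other 5 libraries of their group, with a gap to the nearest library past Dixon's 95% critical share of the group's range. Chance flags about 1 in 20 groups, and 9 of 78 groups examined were flagged, 2 of them among the 20 groups of the 10 ligands. *Wnt2* in iCreb5 5 was 614, with the next library at 376. *Wnt10b* in tdTomato 3a was 2.79, which is 1 read in the shallowest library, with the next at 9.13. *Wnt7b* was 92.6 in iCreb5 4a (next 35.4) and 108.9 in tdTomato 3a (next 42.6), and *Wnt10a* was 32.3 in iCreb5 4a (next 14.4). *Porcn* in iCreb5 3c was 331 (next 293), *Dkk3* in iCreb5 5 was 3067 (next 4413), *Dkk2* in tdTomato 6d was 4605 (next 3895) and *Ctnnb1* in tdTomato 3b was 11722 (next 17576).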

How the results depend on the processing

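Of the 10 ligands, *Wnt16* kept its call in all 24 alternatives, and *Wnt5a* in 13. *Wnt5a* was the 1 ligand called lower, and the count of ligands called lower was 0 with equal totals, with litter 3 alone, without tdTomato 3a and 5b together (adjusted p = 0.0753) and without iCreb5 5 and 6 together (adjusted p = 0.102). Leaving out 1 library at a time gave 0 to 2 such ligands, the second being *Wnt2* without iCreb5 5. With litter as a replicate block, 859 genes were called higher and 728 lower, against 648 and 477 without it, and 8 pathway genes higher and 6 lower, against 6 and 2. The block changed no ligand call. Signs turned for 3 ligands that were never called. In litter 3 alone the log2 change was 0.0187 for *Wnt9a* and 0.26 for *Wnt6*. For *Wnt10b* it was -0.0125 with a pseudocount of 5, -0.15 in edgeR, -0.17 in DESeq2, -0.0623 with the block and litter 3 averaged, -0.14 in litters 4 to 6 and -0.30 without tdTomato 3a and 5b, and it ran from -0.25 to 0.11 with 1 library left out. The cause of these shifts was not tested. Equal totals moved the median log2 change by 0.0673 and gave 799 genes higher and 382 lower, so that 67.7% of calls were higher against 57.6% with the authors' size factors. edgeR called 641 higher and 471 lower, and DESeq2 called 922 and 715. Among the 10 ligands the fewest reads stood behind *Wnt10b*, *Wnt2b* and *Wnt6*, with 1 to 118 per library, and whether depth bears on their missing calls was not tested.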

Other observations

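Each ligand gene has a nearest tested protein-coding gene on either side. Of these 20 neighbours 1 was called higher (*Fam3c*) and none lower, against 3.87% and 2.85% of all genes tested. Their log2 changes ran from -0.40 (*Zbtb40*, beside *Wnt4*) to 0.73 (*Wnt10a*, beside *Wnt6*). Neighbours at *Wnt5a* had log2 changes of -0.39 (*Erc2*, limma adjusted p = 0.261) and 0.59 (*Cacna2d3*, adjusted p = 0.0812). The antisense gene *Gm2670* overlaps *Wnt5a* and averaged 18.7 in iCreb5 and 21.1 in tdTomato.

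With each library's group mean subtracted, so that the group difference no longer enters, genes among the closest to *Wnt16* over the 12 libraries were *Plbd2* (Pearson r = 0.918), *Tfeb* (0.913), *Lrfn1* (0.878) and *Podxl* (0.878). None of these 4 was called between the groups. Their r values are among the highest of 12374 genes compared, and how high r would run by chance was not tested.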
